A study of Mus musculus with 88 samples.

Results

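Transcripts of 10 genes that write or erase methyl groups on histone lysines were followed in single mouse oocytes: Kmt2a, Kmt2b, Kmt2d, Cxxc1, Setd2, Kdm1a, Kdm1b, Ehmt2, Setdb1 and Kdm5b. Each gene was represented by 1 of the 38540 features of an oocyte transcriptome, found by its name in the study's gene list (Setd2) or by the best overlap with the annotated gene on the same strand (the other 9). Each of the 10 genes had such a feature, and 8 of them had a mean of at least 10 counts per oocyte, as had 12408 of all features. Kmt2a and Ehmt2 did not reach this mean and are described separately.

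Lysine methylation on histone H3 has opposite meanings at different residues. Methylation of lysine 4 (H3K4) marks active and CpG-rich promoters and repels the DNA methylation machinery of the growing oocyte, whereas methylation of lysine 36 (H3K36) is laid down along transcribed genes and attracts it, and methylation of lysine 9 (H3K9) is associated with silent chromatin and transposons. In the growing oocyte KMT2B is the main source of H3K4 methylation away from active promoters, SETD2 of H3K36 methylation, and KDM1B removes H3K4 methylation ahead of DNA methylation at many imprinted genes.

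The RNA came from fully grown germinal vesicle (GV) oocytes of virgin C57BL/6Babr female mice that ovulated spontaneously, without added treatment, either young (12 weeks; 42 oocytes) or old (44 to 54 weeks; 46 oocytes). Oocytes were classed as non-surrounded nucleolus (NSN, the less mature chromatin configuration) or surrounded nucleolus (SN, more mature) in the study's sample list, by prediction from transcripts of the same oocytes and not by microscopy. There were 30 young NSN, 12 young SN, 37 old NSN and 8 old SN oocytes, and old oocyte 48A, which had no class, was left out of the main values. Which genes served for the prediction was not in hand. A transcript's difference between SN and NSN oocytes is not independent of the class if that transcript was among them or varies with them. The paper holds it likely that this class differs from the true chromatin state. It proposes that most old oocytes expected to be SN carry an immature, NSN-like transcriptome.

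From which mouse an oocyte came is not labelled, so a group stands for 1 sample, the groups have no replicates and no test compares them. Levels are counts summed over a group, divided by its total and scaled to 1000000 (CPM), intervals are 95% exact intervals that cover counting error only, and SDs are over oocytes. Total counts ran from 976456 to 8231046 per oocyte, with medians of 3002989 in young and 2379884 in old oocytes. Of 10 oocyte markers 9 had a feature, and each was counted in all 87 oocytes, Gdf9 at 3953 to 5475 CPM. The 12 granulosa or cumulus markers with a feature summed to 45.02 to 50.67 CPM in the 4 groups, mostly Nr5a2 and Kitl. Inha stood at 4.91 to 7.04 CPM, counted in 75 oocytes, and Hsd17b1 at 0.804 to 2.32 CPM, counted in 60. Foxl2 and Amh, which define these cells, stayed at or under 0.339 CPM in each group. The sum reached 127.7 CPM in 1 old NSN oocyte, against a median of 41.45 in that group. The 5 theca or stroma markers with a feature summed to 1.00 to 2.09 CPM with Col1a1 at 0. The 4 blood markers summed to 0 to 1.94 CPM with Hba-a1 and Hbb-bs at 0. The 1.94 CPM, in old NSN oocytes, was mostly Lyz2 (1.79 CPM). The blood markers reached 48.57 CPM in 1 old NSN oocyte, against a median of 0 in that group.

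Per kilobase of annotated exon and with both classes together, the 10 transcripts spanned more than 3 orders of magnitude. They stood in the same order in young and old oocytes. Setdb1, which encodes the H3K9 methyltransferase of transposon silencing, stood highest with 47.9 CPM per kb in young and 45.9 in old oocytes. Kdm1b came next with 42.0 and 33.8 CPM per kb. Setdb1 exceeded Kdm1b in 28 of 42 young and 37 of 45 old oocytes, so their order was not the same in every oocyte. In SN oocytes Kdm1b stood above Setdb1, at 61.27 against 46.05 CPM per kb in young and 77.64 against 42.55 in old. In NSN oocytes Setdb1 stood above Kdm1b, at 48.64 against 34.15 in young and 46.63 against 24.48 in old. Kmt2d (12.0 and 11.1 CPM per kb), Setd2 (11.0 and 9.62) and Cxxc1 (9.81 and 9.31) followed, where Kmt2d and Setd2, and Setd2 and Cxxc1, were within a SD over oocytes of each other. On the length of the longest annotated transcript in place of all exons, Cxxc1 (14.7 CPM per kb) and Setd2 (14.2) stood above Kmt2d (12.0) in young oocytes, so the order of these 3 depends on the length used.

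Kdm1a (4.83 and 4.62 CPM per kb) and Kmt2b (3.20 and 3.29) were lower, Kdm1a exceeding Kmt2b in 40 of 42 young and 38 of 45 old oocytes, and Kdm5b stood at 0.450 and 0.425 CPM per kb. Ehmt2 had 0.0683 CPM per kb in young and 0.0499 in old oocytes, and Kmt2a 0.0171 and 0.0143. Among 62 listed writers, erasers and partner subunits with a feature, Setdb1 ranked 4 in both ages, Kdm1b 5 in young and 8 in old, Ehmt2 60 and Kmt2a 62. Wdr5, a subunit shared by the H3K4 methyltransferase complexes, ranked first with 143 CPM per kb in young oocytes. These ranks are for both classes together. Within SN oocytes only Wdr5 of the 62 stood above Kdm1b (61.27 CPM per kb in young and 77.64 in old). Wdr5 had 146.3 CPM per kb in young SN and 152.6 in old SN oocytes.

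**Figure D1:**
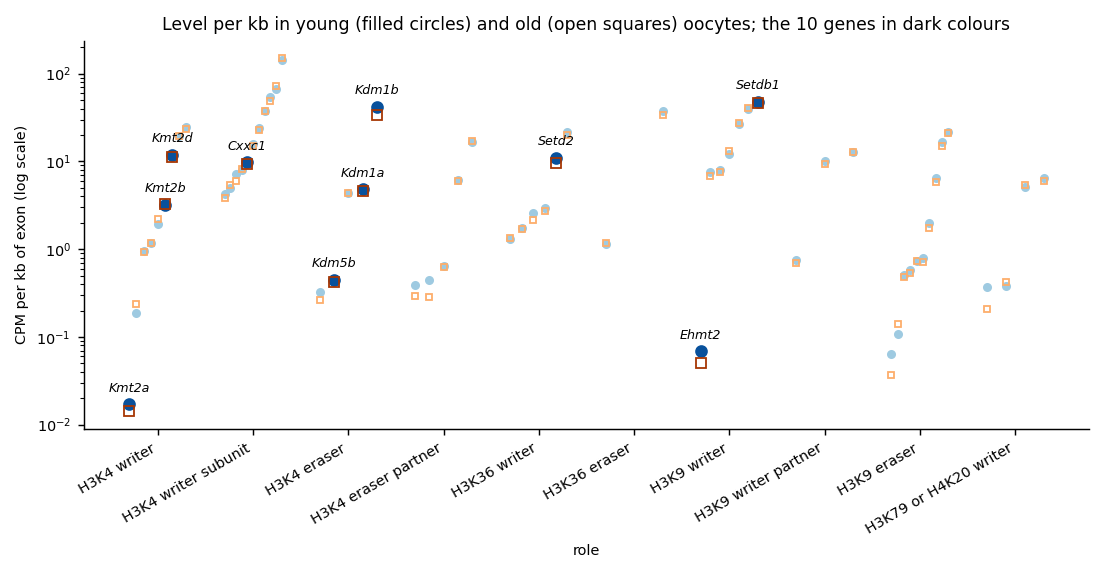
Level per kilobase of annotated exon (CPM per kb, log scale) of 62 writers, erasers and partners by role, with filled circles for the 42 young and open squares for the 45 old oocytes, the 10 genes in dark colours and named. Setdb1 and Kdm1b lie between 33.8 and 47.9 CPM per kb, and Ehmt2 and Kmt2a lie below 0.07 in both ages.

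For the 2 highest and the 2 lowest of these genes, the 250 bases before the annotated RefSeq start were read (GRCm38.p6, gene strand, CG dinucleotides in capitals). They set the annotated promoters beside the levels. RefSeq windows were matched for 8 of the 10 genes.
Setdb1, chr3:95357203-95357452, minus strand: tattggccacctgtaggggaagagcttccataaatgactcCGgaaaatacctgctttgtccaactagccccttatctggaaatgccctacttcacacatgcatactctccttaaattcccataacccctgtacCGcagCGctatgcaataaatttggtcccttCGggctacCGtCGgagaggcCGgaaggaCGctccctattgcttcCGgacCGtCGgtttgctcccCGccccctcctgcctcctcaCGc
Kdm1b, chr13:47043249-47043498, plus strand: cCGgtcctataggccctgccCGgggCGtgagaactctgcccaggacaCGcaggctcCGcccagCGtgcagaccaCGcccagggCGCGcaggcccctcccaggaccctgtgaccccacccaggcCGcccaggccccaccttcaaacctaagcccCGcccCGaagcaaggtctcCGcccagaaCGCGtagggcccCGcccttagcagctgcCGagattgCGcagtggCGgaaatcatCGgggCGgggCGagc
Ehmt2, chr17:34898224-34898473, plus strand: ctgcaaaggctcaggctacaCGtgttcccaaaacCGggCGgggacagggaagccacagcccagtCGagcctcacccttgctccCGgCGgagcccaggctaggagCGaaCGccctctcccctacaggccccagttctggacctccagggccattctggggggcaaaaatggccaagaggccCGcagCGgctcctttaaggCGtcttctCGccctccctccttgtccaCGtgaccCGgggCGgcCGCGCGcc
Kmt2a, chr9:44881290-44881539, minus strand: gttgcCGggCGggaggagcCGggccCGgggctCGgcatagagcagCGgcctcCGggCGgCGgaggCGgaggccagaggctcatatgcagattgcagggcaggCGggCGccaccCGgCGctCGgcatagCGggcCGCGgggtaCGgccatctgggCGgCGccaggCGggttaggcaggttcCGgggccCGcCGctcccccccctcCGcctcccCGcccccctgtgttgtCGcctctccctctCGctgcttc
The motif counted was CG, which reads the same on both strands and is found at least once in 92.1% of the 32851 windows, with a median of 6. The Setdb1 window held 13 CG, a number reached by 31.5% of all windows, and that of Kdm1b 22 (14.8%). The windows of the barely counted genes held more than that of Setdb1, with 18 for Ehmt2 (21.7%), 36 at a further start of Ehmt2 (2.58%) and 29 for Kmt2a (6.78%). A count of CG describes these letters only. The counted features of Setdb1 and Kdm1b begin 249 and 222 bases before the annotated start. Their windows thus lie mostly within the counted features, and whether they are the promoters used in oocytes was not tested. The window at the further start of Ehmt2 also lies within its feature.

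Kdm1b had the largest difference of the 8 genes with enough counts in each of the 5 comparisons. It encodes the amine oxidase that demethylates H3K4 and lies on chromosome 13 from 47043277 to 47084600 (feature TCONS_00026956, plus strand, GRCm38). In young NSN oocytes single values ran from 111.6 to 290.9 CPM with a median of 185.6, and in old NSN oocytes from 73.25 to 229.3 with a median of 131.8. In young SN oocytes they ran from 238.7 to 502.4 CPM with a median of 325.3, and in old SN oocytes from 330.5 to 530.6 with a median of 423.0. Each of the 8 old SN oocytes thus lay above each of the 37 old NSN oocytes, 9 of the 12 young SN oocytes lay above each of the 30 young NSN oocytes, and the 2 ages overlapped within either class.

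Summed over oocytes, Kdm1b stood at 187.7 CPM in young NSN (95% counting interval 184.9 to 190.4), 134.5 in old NSN (132.2 to 136.9), 336.7 in young SN (330.9 to 342.5) and 426.6 in old SN oocytes (417.6 to 435.8). The log2 ratio of SN over NSN was 0.84 in young (0.81 to 0.88) and 1.67 in old oocytes (1.63 to 1.70), above those of 98.9% and 99.2% of the 12408 features. The ratio was thus 0.82 larger in old oocytes, a difference that was not tested. With age, Kdm1b went in opposite directions in the classes, with a log2 ratio of old over young of -0.48 in NSN (-0.51 to -0.45) and 0.34 in SN oocytes (0.30 to 0.38). Over all oocytes the ratio was -0.31 (-0.34 to -0.28), and 3.84% of features had a lower one.

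A difference was called where the log2 ratio was at least 0.32 in either direction. Numbers in the oocyte names form 6 unbroken runs, 3 for either age, and the labels do not say what a run stands for. The suffix A of many names is not explained either, and it was not used for grouping. By this limit Kdm1b was called in each comparison but old over young with both classes together, where it was called as the mean (-0.35) or median over oocytes (-0.43), without the young run 1-7 (-0.44) or without the old run 41-48 (-0.48). Within SN oocytes its ratio fell short of the limit as the mean over oocytes (0.28), thinned to 900000 counts per oocyte (0.29), without the young run 17-24 (0.30) and without the old run 41-48 (0.24).

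**Figure D2:**
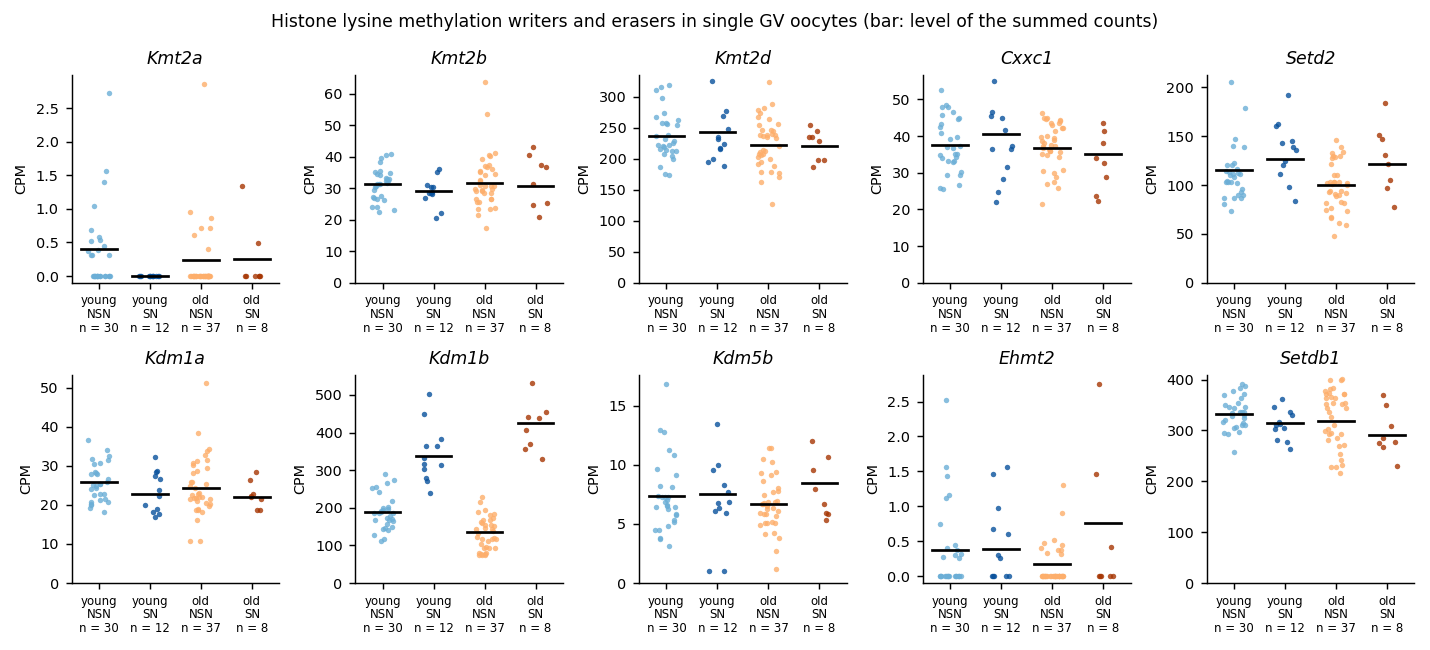
CPM of each of the 10 genes in single oocytes (points) by age and predicted configuration, on a separate linear axis for each gene, with a bar at the level of the summed counts. For Kdm1b the 8 old SN oocytes (330.5 to 530.6 CPM) lie above all 37 old NSN oocytes (73.25 to 229.3), whereas the groups overlap for each of the other genes.

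Within each of these 6 runs the summed level of Kdm1b was higher in SN than in NSN oocytes. The log2 ratios were 0.57, 0.87 and 0.77 in the young and 1.34, 1.88 and 1.61 in the old runs. They rest on 1, 5 and 6 SN oocytes in the young and 2, 3 and 3 in the old runs. The 1 SN oocyte of the young run 1-7 (272.3 CPM) lay below the highest NSN oocyte of that run (273.7 CPM). Kdm1b was the only 1 of the 8 genes higher in SN oocytes within all 6 runs. Of all features, 12.0% were higher in SN oocytes within all 6 runs and 7.21% lower. Among NSN oocytes, the 3 old runs (114.8, 136.9 and 148.5 CPM) all lay below the 3 young runs (180.2, 183.7 and 206.5). With SN oocytes included the runs of the 2 ages overlapped, as they did for the other 9 genes with or without SN oocytes. Over all features, 6.21% had the 3 old runs above the 3 young runs and 7.10% below, and 5.14% and 7.95% in NSN oocytes alone.

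**Figure D3:**
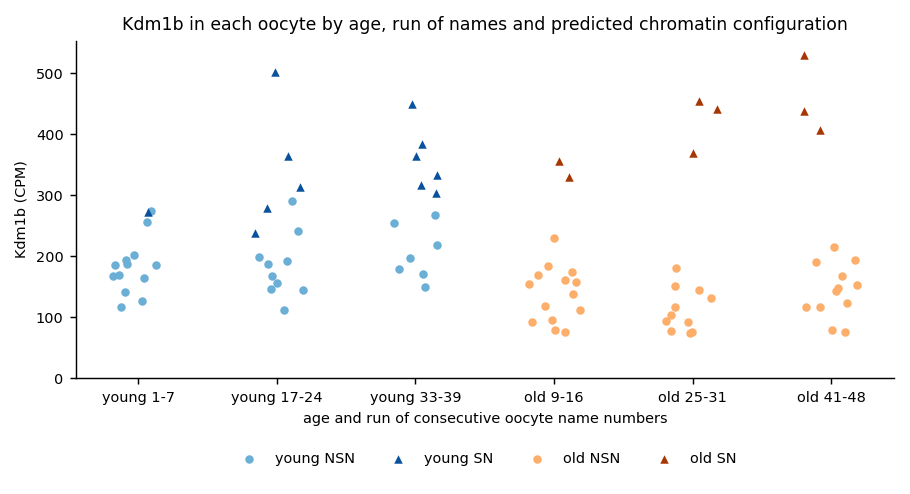
Kdm1b (CPM, linear axis) in each of the 87 oocytes by run of consecutive name numbers, with circles for NSN and triangles for SN oocytes, in blue for young and orange for old. NSN oocytes of the 3 old runs centre lower (114.8 to 148.5 CPM as summed levels) than those of the 3 young runs (180.2 to 206.5). SN oocytes are higher as summed levels in each run, with overlap in the young runs 1-7, which has 1 triangle, and 17-24.

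The Kdm1b feature shares 1461 bases at its start with a feature of the other strand (NOMERGE_TCONS_00000419, mean of 299.6 counts per oocyte), and whether the counting used strand is not given in the sources used here. That neighbour had log2 ratios of SN over NSN of -0.15 in young and -0.05 in old oocytes, and of old over young of 0.10 in NSN and 0.21 in SN oocytes. It therefore did not share the differences of Kdm1b between SN and NSN oocytes. Oocyte markers summed to 23240 CPM in young NSN, 27772 in young SN, 21527 in old NSN and 29246 in old SN oocytes, and their part in the Kdm1b values was not tested.

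Kdm5b, the other of the 8 genes with a ratio past 0.32 in a comparison, encodes a demethylase of the JmjC family and lies on chromosome 1 from 134560170 to 134634237 (TCONS_00002775). Its single values ran from 3.11 to 16.8 CPM in young NSN (median 6.74), 0.976 to 13.5 in young SN (6.83), 1.22 to 11.4 in old NSN (6.64) and 5.31 to 12.1 in old SN oocytes (7.33). All 4 groups overlapped, with 7 of the 8 old SN oocytes inside the range of old NSN oocytes. The log2 ratio of old SN over old NSN was 0.33 (0.08 to 0.58), and 0.30 with TMM factors and 0.31 with size factors from medians of ratios, both short of 0.32, and 0.11 without the old run 41-48. In young oocytes the ratio of SN over NSN was 0.03 (-0.17 to 0.23), and of old over young -0.08 (-0.22 to 0.06). Kdm5b rested on few counts in SN oocytes, and its ratio of old over young SN, 0.17, was 0.68 without the young run 17-24 and -0.13 without the young run 33-39.

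Kdm1a encodes LSD1, the close relative of KDM1B, and lies on chromosome 4 from 136550540 to 136612787 (TCONS_00075486, minus strand). It stood at 22.2 to 25.9 CPM in the 4 groups, with log2 ratios between -0.18 and -0.04 in the 5 comparisons. Per kilobase, Kdm1b exceeded Kdm1a 6.83 times in young NSN, 5.22 times in old NSN, 13.9 times in young SN and 18.2 times in old SN oocytes. The feature begins 10.1 kb before the start of the annotated gene, as does that of Kmt2b by 14.2 kb, and 4.85% of 10066 features matched to genes began more than 5 kb before their gene. Both were counted over the longer span, so their levels per kilobase of annotated exon are uncertain.

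Kmt2d, which encodes a methyltransferase of enhancers, stood highest of the 3 H3K4 methyltransferase genes among the 10, below Kmt2c (24.96 CPM per kb in young oocytes) and Setd1a (19.57), which encode other H3K4 methyltransferases. It lies on chromosome 15 from 98831669 to 98872370 (TCONS_00040363) and stood at 236.5 CPM in young NSN, 242.9 in young SN, 221.8 in old NSN and 220.8 in old SN oocytes. Single oocytes ranged from 126.6 to 325.5 CPM, and 42 of 45 old oocytes lay within the range of the young. Kmt2b, on chromosome 7 from 30568594 to 30602896 (TCONS_00093620), stood at 29.2 to 31.7 CPM, with log2 ratios between -0.10 and 0.07. Per kilobase, Kmt2d exceeded Kmt2b between 3.37 and 4.01 times in the 4 groups.

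Cxxc1, which encodes the CpG-binding subunit of the SETD1 complexes, lies on chromosome 18 from 74215679 to 74221533 (TCONS_00050641). By summed counts Cxxc1 was lowest in old SN (95% counting interval 32.4 to 37.7 CPM) and highest in young SN oocytes (38.6 to 42.6 CPM). The log2 ratio of old over young was -0.21 (-0.34 to -0.08) within SN, against -0.03 (-0.10 to 0.04) within NSN oocytes. As the mean over oocytes, young SN (37.53 CPM) did not exceed young NSN oocytes (37.87 CPM). The 8 old SN oocytes, at 22.2 to 43.5 CPM, all lay within the range of the 12 young SN oocytes (21.96 to 55.13). Without the old run 41-48 the ratio in SN oocytes was -0.45, past the limit for a called difference. Without the young run 17-24 the ratio in SN oocytes was -0.09, so its size rests on a few oocytes.

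Setd2, the H3K36 methyltransferase gene on chromosome 9 from 110531915 to 110618633 (TCONS_00104432), was lower in old oocytes, though short of a log2 ratio of 0.32. It ran from 73.5 to 205 CPM in young NSN (median 109), 48.1 to 146 in old NSN (100.5), 83.6 to 192 in young SN (138) and 77.4 to 184 in old SN oocytes (126). The log2 ratio of old over young was -0.20 (-0.23 to -0.16) over all oocytes, with a lower one in 10.0% of features. It was -0.21 in NSN and -0.07 in SN oocytes. The SN value was 0.23 without the old run 41-48 and 0.03 without the young run 33-39. It was -0.20 without the young run 17-24 or the old run 25-31, so its sign rests on the runs. Of the 37 old NSN oocytes 11 lay above the young NSN median and 5 below the lowest young NSN oocyte. Setd2 was 0.14 higher on the log2 scale in SN than NSN oocytes among young and 0.28 among old oocytes. The young value was 0.34, past the limit, as the median over oocytes, and 0.02 without the young run 33-39. The old value was 0.37 after thinning, 0.12 without the old run 9-16 and 0.55 without the old run 41-48. In the run 41-48 SN oocytes (95.1 CPM) did not exceed NSN oocytes (96.5 CPM).

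Setdb1, on chromosome 3 from 95323504 to 95357451 (TCONS_00067949, minus strand), was the most evenly expressed of the 8 genes in young oocytes. It stood at 333 CPM in young NSN, 316 in young SN, 320 in old NSN and 292 in old SN oocytes, with log2 ratios between -0.13 and -0.06 in the 5 comparisons. The old run 25-31 stood at 363 CPM and the old run 41-48 at 262, outside the 307 to 339 of the 3 young runs on either side. Median total counts were 2350818 in the former and 2775257 in the latter run, and their part in this gap was not tested. The log2 ratio of old over young, -0.06 over all oocytes, was -0.17 without the run 25-31 and 0.10 without the run 41-48, so its sign rests on these runs.

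Ehmt2, which encodes the H3K9 dimethyltransferase G9a, lies on chromosome 17 from 34898465 to 34914051 (TCONS_00045668) and was almost uncounted. A total of 81 counts was found over the 87 oocytes, in 33 of them, although the feature covers the annotated gene and no other feature on either strand overlaps it. Levels were 0.368 CPM in young NSN (0.257 to 0.512), 0.392 in young SN (0.219 to 0.646), 0.172 in old NSN (0.0980 to 0.278) and 0.753 in old SN oocytes (0.422 to 1.24). The 15 counts in old SN oocytes came from 3 of 8 oocytes. Ehmt1, whose product pairs with G9a, stood 60.1 to 208 times higher per kilobase in the 4 groups, with no order by age read from these folds, since each has only 15 to 35 counts of Ehmt2 below it.

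Kmt2a, the H3K4 methyltransferase gene MLL1 on chromosome 9 from 44803355 to 44881274 (TCONS_00105853, minus strand), had 65 counts in 23 of the 87 oocytes. It stood at 0.400 CPM in young NSN (0.283 to 0.549), 0.236 in old NSN (0.148 to 0.357) and 0.251 in old SN oocytes (0.0815 to 0.586). In the 12 young SN oocytes it had 0 counts, which allows up to 3 counts of their total. Set at that limit the log2 ratio to young NSN oocytes is -2.35, and its exact 95% counting interval reaches up to -1.98. The limit moved with the oocytes included: it was -1.55 without the young run 33-39, -0.64 without the young run 17-24 and -2.80 without the young run 1-7. After thinning, which leaves out no oocyte, it was -0.42. Single values reached 2.72 CPM in young and 2.86 CPM in old oocytes. As most oocytes had no count of either gene, values of single oocytes describe counting as much as level.

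Counted over the 8 genes, 0 were higher and 0 lower by a log2 ratio of at least 0.32 in old over young oocytes, against 1.06% and 3.45% of all features. In NSN oocytes 0 genes were higher (1.31% of features) and 1, Kdm1b, was lower (4.58%) in old oocytes, and in SN oocytes Kdm1b was higher (8.39%) and 0 genes were lower (7.61%). Between SN and NSN oocytes, Kdm1b was the 1 gene higher in young oocytes (10.9% of features) with 0 lower (4.38%), and Kdm1b and Kdm5b were higher in old oocytes (20.0%) with 0 lower (14.7%). Counts of 0 to 2 of 8 genes do not stand apart from these shares, and it is by size that Kdm1b differed from the other genes. The comparisons share groups of oocytes, so the values in them are not independent.

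**Figure D4:**
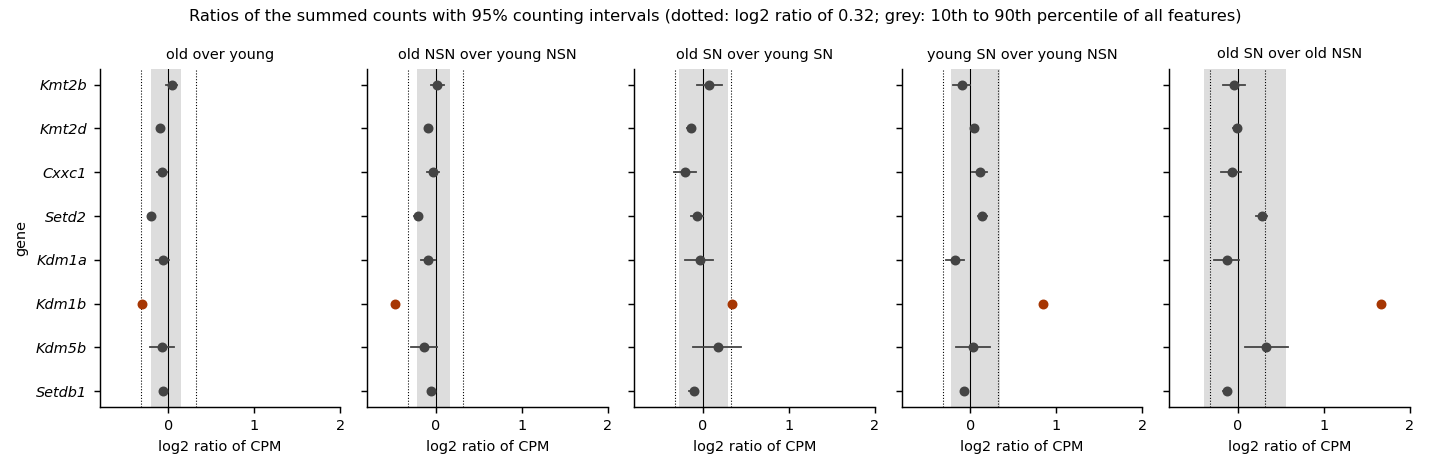
Log2 ratio of CPM of the summed counts for the 8 genes with a mean of at least 10 counts per oocyte in the 5 comparisons, with 95% counting intervals (lines), the limit of 0.32 either way (dotted) and the 10th to 90th percentile of all 12408 features (grey). Kdm1b (orange) reaches 0.84 in young and 1.67 in old oocytes in SN over NSN, and the other 7 genes stay between -0.21 and 0.33.

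The median log2 ratio of old over young of the 8 genes was -0.08, with 7 below 0, against a median of -0.01 over all features. It was -0.09 in NSN and -0.06 in SN oocytes. For SN over NSN the medians were 0.04 in young and -0.03 in old oocytes, near the 0.01 and -0.0049 of all features.

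Variation between oocytes was taken as the squared coefficient of variation (CV) of CPM less its counting part. For Kmt2b it was 0.0147 in young and 0.0531 in old oocytes, for Setdb1 0.00861 and 0.0272, for Kdm1b 0.148 and 0.422, and for Kdm1a 0.0251 and 0.0653. These 4 genes were thus more variable in old oocytes, with log2 ratios of 1.38 to 1.85. Setd2 (0.19) and Kmt2d (0.08) differed little, and Cxxc1 (-0.83) and Kdm5b (-1.62) were more variable in young oocytes.

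In all, 6 of the 8 genes were more variable in old oocytes, against 74.2% of all features, with a median log2 ratio of 0.78 against 0.46. Within NSN oocytes the ratio of Kdm1b was 0.78 in place of 1.51, whereas those of Kmt2b (1.90), Setdb1 (1.78) and Kdm1a (1.79) were larger. Taken within runs of names, the median over the genes was 0.35, and the runs of old oocytes differed in Setdb1 and Kmt2b as described for Setdb1 (Kmt2b at 37.8 CPM in the run 25-31 and 26.98 in the run 41-48). Old oocytes came from more mice than young oocytes, and variation between mice and with age cannot be told apart. Values also differed by the suffix A of the names in places. In NSN oocytes of the young run 1-7, Setd2 ran from 80.20 to 95.47 CPM with the suffix and from 104.6 to 205.2 without it. In the young run 33-39 these ranges overlapped (89.57 to 139.2 and 73.54 to 140.1). The part of the suffix in the variation was not tested.

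**Figure D5:**
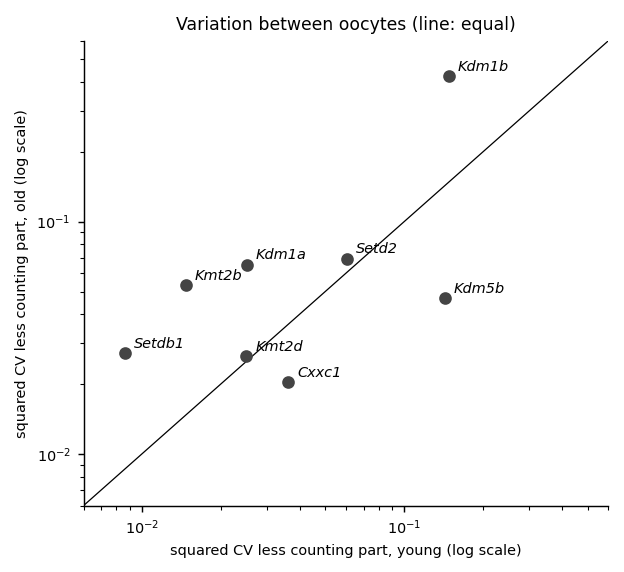
Squared CV of CPM over oocytes less its counting part in young (horizontal, log scale) and old oocytes (vertical, log scale) for the 8 genes, with the line of equal values. Kmt2b, Kdm1a, Setdb1 and Kdm1b lie clearly above the line, and Cxxc1 and Kdm5b below it.

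Across the 87 oocytes, after centring log2(CPM + 1) on the 4 groups, the 28 pairs among the 8 genes had Spearman correlations from -0.37 to 0.64 with a median of 0.04, and 18 were above 0. Kmt2d and Setdb1 were the most alike pair (0.64), followed by Kmt2b with Kmt2d (0.46) and Kmt2b with Setdb1 (0.45), while Cxxc1 and Setd2 were the least alike (-0.37). Kdm1b stood apart from Setdb1 (-0.32) and Kmt2b (-0.20). Values of an oocyte share its library and depth, so these correlations are descriptions only. Neither the runs nor the suffix A of the names were taken into account in them.

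Among 5360 or 5361 features with a mean count of at least 100, that most like Kdm1b was Zfp473 (0.79, against 0.58 at the 99th percentile of features), and that most like Setd2 was Rif1 (0.81 against 0.64). Stk35 was most like Kmt2d (0.74) and Lrp5 most like Setdb1 (0.74), each against 0.58. Pptc7 was most like Kmt2b (0.65), Eif2b4 most like Cxxc1 (0.61), Ppfia1 most like Kdm1a (0.54) and Gtpbp1 most like Kdm5b (0.39). With Pearson's correlation the feature most like was another one for 6 of the 8 genes.

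Of 56 other genes of these pathways 52 had a feature and 46 passed the minimum mean count. In old over young oocytes 0 of the 46 were past a log2 ratio of 0.32 in either direction, with a median log2 ratio of -0.04. The lowest were Kdm5a (-0.31), Hcfc1 (-0.26) and Smyd2 (-0.26), and the highest Smyd3 (0.19), Kmt5b (0.17) and Ash2l (0.12). In SN over NSN oocytes 4 were higher and 1 lower among young oocytes, beside 10.9% and 4.38% of all features, and 11 higher and 3 lower among old oocytes, beside 20.0% and 14.7%. These counts are near the shares of all features, and the medians were 0.01 in young and 0.08 in old oocytes.

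Kdm5a, another H3K4 demethylase gene, was at the top of both, at 3.21 CPM in young NSN and 8.17 in young SN oocytes (log2 ratio 1.35), and at 2.20 in old NSN and 10.95 in old SN oocytes (2.32). Kdm5a rested on few counts, with 305 in young NSN, 313 in young SN, 205 in old NSN and 218 in old SN oocytes. Its mean of 11.97 counts per oocyte passed the minimum only with the SN oocytes included. The minimum thus helped to list a gene that is higher in SN oocytes, and its part in this place was not tested. The log2 ratio of old over young of Kdm5a was -0.55 in NSN and 0.42 in SN oocytes, the same signs as for Kdm1b. Rcor3, a corepressor partner of KDM1A, came next with 0.80 and 1.69, and Kdm4b, a demethylase of H3K9, with 0.51 and 1.00. The remaining H3K4 eraser, Kdm5c, had ratios of 0.11 and 0.24, and Glyr1, a cofactor of KDM1B, -0.05 and -0.01.

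At the other end of SN over NSN stood Kmt5a (-0.49 in young and -0.38 in old oocytes), an H4K20 methyltransferase gene, and Dpy30 (-0.32 and -0.73), a subunit of the H3K4 methyltransferases. Ncoa6 (-0.29) was the third lowest in young and Dot1l (-0.40), the H3K79 methyltransferase gene, the second lowest in old oocytes.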

How the data were processed

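Single GV oocytes were profiled by the RNA part of scM&T-seq, in which polyadenylated RNA is caught on oligo-dT beads and amplified as Smart-seq2 cDNA, without molecular identifiers. The authors trimmed reads with Trim Galore 0.4.4, aligned them to GRCm38 with HiSat2 2.1.0, counted primary alignments over an oocyte transcriptome and deposited raw counts, without normalisation. The counting program and its strand setting are not given in the sources used here. Totals were scaled to CPM, and groups came from the labels and the study's sample list. Features were named by that study's gene list or by GENCODE M21 (overlap over union of at least 0.3). The 10 genes, the lists and the comparisons were chosen with earlier results of these data known. Named were all 10 genes, the 3 highest and 3 lowest other pathway genes of old over young and of SN over NSN at each age, and the feature most like each gene; others named beside them, such as Ehmt1, Kdm5c, Glyr1, Wdr5, Kmt2c and Setd1a, were chosen after their values were seen. Promoters are from RefSeq. Levels, intervals and dispersion were computed with Python 3.11.15, numpy 2.4.6, pandas 2.3.3 and scipy 1.17.1, figures with matplotlib 3.10.9 and TMM factors with edgeR 4.0.16, and were tested on simulated data. Alternatives were scaling, estimator, thinning to 900000 counts, length, fold, and oocytes or runs left out.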

Additional observations from a re-analysis of the deposited data

Results flagged for a closer look

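Among the 8 old SN oocytes, Kmt2a in old oocyte 47 stood far above the others, at 1.340 CPM, against 0.493 CPM in the next. The value rests on 4 counts. Only 2 of these 8 oocytes had a count of Kmt2a, and the usual chance rate of such a gap does not hold for counts this low.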

How the results depend on the processing

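With no test between groups, a log2 value was taken to have moved when it differed by more than 0.1. Of 125 values under alternatives for the medians and counts of genes, 108 stayed close and 17 moved, and for single genes 446 stayed close and 120 moved. The causes of these moves were not tested, apart from the stricter fold. Past 1.5-fold in place of a log2 ratio of 0.32, the counts were 0 genes in old over young within NSN, 0 within SN, and 1 in old SN over old NSN. The last count was also 1 with TMM factors or size factors from medians of ratios, which lose Kdm5b. Thinned to 900000 counts, which also weights oocytes equally, it was 4, with Setd2 (0.37) and Kdm1a (-0.38), and 1 gene, Kdm1b (-0.35), was past 0.32 in old over young, while in SN oocytes it was Kdm1a (-0.34) and not Kdm1b (0.29). The median log2 ratio of dispersion over the genes, 0.78, was 0.66 with TMM factors, 0.96 thinned, 0.93 with all 88 oocytes, 0.51 in NSN oocytes and 0.35 within runs of names. Leaving out a run of names, it ran from 0.47 (without old 41-48) to 1.08 (without young 1-7). The median of all 10 genes in old SN over old NSN ran from -0.09 (without old 41-48) to 0.13. The log2 ratio of Kdm1b kept its sign in each comparison and alternative run, from -0.58 to -0.39 in old over young NSN, 0.24 to 0.39 in SN, 0.81 to 0.87 in young and 1.58 to 1.72 in old SN over NSN. Without old 41-48, Kmt2b reached 0.33 in old over young SN, and without young 17-24 Kdm5b fell to -0.48 in young SN over NSN. Kmt2a and Ehmt2 have no median over oocytes. No paired analysis was possible because the oocyte names pair no oocytes across the ages, and all 88 oocytes could not be used in comparisons by configuration.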

Other observations

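Old oocyte 48A, which has no predicted configuration and was left out above, had 3588332 counts. Setdb1 stood at 55.2 CPM, Setd2 at 33.4 CPM and Kdm1a at 10.0 CPM, each below all 87 other oocytes, whose lowest values were 217, 48.1 and 10.7 CPM. The other 7 genes lay within the range of the 87 oocytes, Kdm1b at 236 CPM and Kmt2d at 256 CPM among them. The methods of the study left an oocyte out as an outlier by expression distance and do not name it, and 48A is the oocyte without a class in the sample list.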
